A study of Mus musculus with 4 samples.

Results

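The messenger RNAs of the DNA replication machinery were measured in mouse Th17 cells, the CD4 T helper cells named for the cytokine interleukin 17. The 47 genes were taken by name from a list that covers the licensing of replication origins and the replisome, the machine that copies DNA. All 47 were found among the 50600 genes listed in the files. The choice of genes used no measured value, although it was made with earlier results of these data known. RNA sequencing gave 4 libraries of 1 group, Th17 primary cells of the C57BL/6NJ strain, labelled biological replicates 1 to 4. The labels give no genetic change and no treatment, leave sex, age and stage unrecorded, and link a protocol that differentiates CD4 T cells. All 4 libraries carry 1 donor label, and their names in the headers hold the words sorted and 72 hr. There is no second cell type, time or condition, so the comparisons are between genes in the same library and between the 4 libraries. No label ties the libraries to separate cultures or animals. The p-values therefore measure the spread of these 4 samples alone, part of which may be technical.

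Chromosomes are copied once per division. In the G1 phase the origin recognition complex (ORC) marks origins on DNA, and CDC6 and CDT1 help it to load the ring-shaped MCM helicase, a step called licensing. In S phase the kinase CDC7 with its activator DBF4 and the factors CDC45, GINS and MCM10 turn the loaded rings into moving helicases, while geminin binds CDT1 and prevents a second licensing. Polymerase alpha with primase starts each strand, and polymerases epsilon and delta extend it on the PCNA clamp, which the RFC clamp loader places on DNA. Activated T cells are known for short division times, and many of these genes are known targets of E2F transcription factors in mammals.

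The E2F factors are known to bind words of the form TTT, then G or C in 2 positions, then CGC. The promoters are shown because this word is a feature that some of the 47 genes share outside the measured RNA. Promoter windows of 250 bases before to 50 bases after the start, from RefSeq in build GRCm38.p6, were found for 38 of the 47 genes. No window was found for Gmnn, Mcm4, Gins1, Gins2, Gins4, Rfc2, Prim2, Pole and Tipin. The 4 words TTTCCCGC, TTTCGCGC, TTTGCCGC and TTTGGCGC were searched on both strands, together with CCAAT, the word bound by the factor NF-Y. Stretches before the start of 4 genes with no annotated exon in them are printed here 5′ to 3′ on the gene's strand, with E2F words, CCAAT and their reverse complements in capitals (overlapping E2F words run together):
Mcm5: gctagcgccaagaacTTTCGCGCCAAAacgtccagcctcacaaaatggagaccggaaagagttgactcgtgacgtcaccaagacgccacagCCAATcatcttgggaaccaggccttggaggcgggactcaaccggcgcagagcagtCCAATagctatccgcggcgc
Mcm6: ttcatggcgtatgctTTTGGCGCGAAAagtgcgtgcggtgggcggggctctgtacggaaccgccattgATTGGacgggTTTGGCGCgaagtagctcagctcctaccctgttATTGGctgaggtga
Pola1: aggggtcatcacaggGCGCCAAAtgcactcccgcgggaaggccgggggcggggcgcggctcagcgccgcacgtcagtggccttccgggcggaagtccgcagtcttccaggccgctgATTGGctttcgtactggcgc
Cdc6: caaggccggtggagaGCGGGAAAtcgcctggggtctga

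In build GRCm38.p6 these stretches are chr8:75109341-75109506 on the plus strand for Mcm5, chr1:128359706-128359830 on the minus strand for Mcm6, chrX:93632173-93632308 on the minus strand for Pola1 and chr11:98907998-98908035 on the plus strand for Cdc6. The Cdc6 stretch lies before the RefSeq start but inside the gene as counted, which begins at 98907801. Mcm5 and Mcm6 encode helicase subunits, Pola1 the catalytic subunit of polymerase alpha, and Cdc6 a helicase loader. In Mcm5 and Mcm6 an E2F word and the reverse complement of another overlap into 1 block, and Mcm6 holds a further E2F word nearer the start. An E2F word was present in the windows of 14 of 38 replication genes (36.8%), against 430 of 8558 (5.02%) of the protein-coding genes measured at 1 TPM or more with a window. Among all 27025 genes of the promoter table the share was 2.60%. CCAAT was present in 22 of 38 replication genes (57.9%), against 43.6% of the measured coding genes, and both words stood in 8 (21.1%), against 2.23%. The 14 genes were Orc1, Orc3, Cdc6, Cdt1, Mcm3, Mcm5, Mcm6, Mcm7, Gins3, Rfc3, Pola1, Pold1, Pole2 and Lig1, of which 9 held the word before the start and 5 after it alone. Their median level was 74.2 TPM, against 103 TPM for the 24 replication genes whose windows held none. A matching word is a description of the sequence and does not show a bound site.

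**Figure D1:**
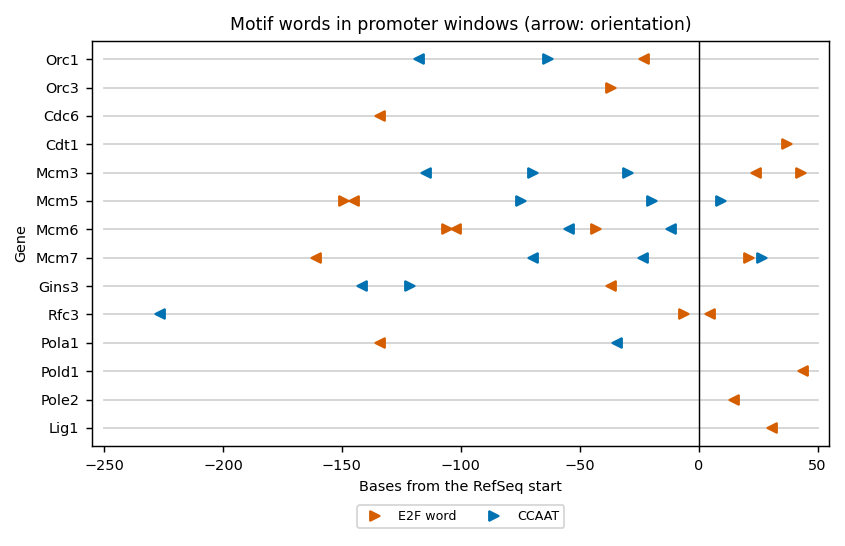
Positions of E2F words (orange) and CCAAT (blue) in the promoter windows of the 14 replication genes with an E2F word, in bases from the RefSeq start at 0. Arrows point right for a word on the gene's strand and left for its reverse complement, and for genes with several windows the first one with an E2F word is drawn. E2F words lie on both sides of the start, and 8 of the 14 genes also hold CCAAT.

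Depth ran from 9382661 counts in replicate 3 to 34542693 in replicate 1, and the replication genes took between 0.636% (replicate 4) and 0.700% (replicate 3) of the counts. The lowest count of any of the 47 genes in any library was 215, so counting error alone gives a coefficient of variation of at most 6.82% for a single value. The cells carried the defining Th17 and T-cell transcripts, with Il17a at 7787 ± 754, Il17f at 11651 ± 878 and Cd4 at 564 ± 30.2 TPM (SD, n = 4). TPM is the count per base of exon, scaled to a fixed total per library. B-cell, myeloid and dendritic markers were at or near 0 (Ms4a1 and Siglech with 0 counts, Cd14 the highest at 1.73 ± 0.784 TPM), and Cd8a held 4 counts in all against 13.4 ± 1.96 TPM for Cd8b1. Of the natural killer markers, Ncr1 and Klrb1c had 0 counts, Nkg7 8.82 ± 3.00 TPM and Klrd1 3.60 ± 0.989 TPM. Xist, the RNA of the inactive X chromosome, stood at 177, 193, 2.15 and 0.598 TPM in the 4 replicates, and the Y-linked Ddx3y at 0.165, 0.133, 59.7 and 55.2 TPM. The RNA of these genes thus parts replicates 1 and 2 from 3 and 4, although all carry 1 donor label, so the libraries did not all come from 1 animal. Results between the libraries are given per replicate below, and replicates 3 and 4 took opposite sides in them.

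All 47 replication genes were at 1 TPM or more in every library, and the lowest mean among them was 27.3 TPM. Their median was 95.4, 101, 102 and 88.4 TPM in replicates 1 to 4, or 96.6 ± 6.16 TPM (SD, n = 4), against 30.2 ± 0.426 TPM for the 10696 protein-coding genes whose mean reached 1 TPM. With the exonic length less 200 bases, both were lower, at 47.04 ± 3.49 and 14.3 ± 0.236 TPM, and the ratio of the medians was 3.30, against 3.20 with the full length. Of the 47, 44 stood above the median of those coding genes and 10 stood above 90% of them. The means spanned 18.6-fold, with 23 genes at 100 TPM or more and 24 between 20 and 100 TPM. In the order of the means, 35 of 46 neighbouring genes overlapped in their ranges over the 4 libraries. Such an overlap ignores that both genes were read in the same library. Most overlapping neighbours changed order between libraries, while some, such as Pcna and Mcm3, kept it in 4 of 4. The 11 steps without overlap lay between Mcm3 and Mcm6, Mcm4 and Tipin, Tipin and Fen1, Chaf1a and Gmnn, Pola2 and Gins4, Rpa3 and Prim1, Cdt1 and Orc1, Pole and Cdc7, Dbf4 and Prim2, Prim2 and Chaf1b, and Chaf1b and Gins3. Of the 47 genes, 9 lie on chromosome 5 and 6 on chromosome 8. Coordinates of genes are given in build mm10, those of the annotation used for counting, GENCODE release 13. Levels per length depend on which exons are counted as the gene. Beside the exonic length of the files, the length of the principal transcript in GENCODE release 21 was therefore used, an alternative chosen after seeing the data. With it 8 of the 47 genes moved by 1.5 times or more (Orc3, Orc5, Dbf4, Rfc3, Prim1, Prim2, Chaf1a and Chaf1b), and their second value is given below. The new lengths also change the total used for scaling: Mcm4, with 3589 bases under both, went from 330.2 to 229.9 TPM. Values under different lengths are therefore not on the same scale.

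**Figure D2:**
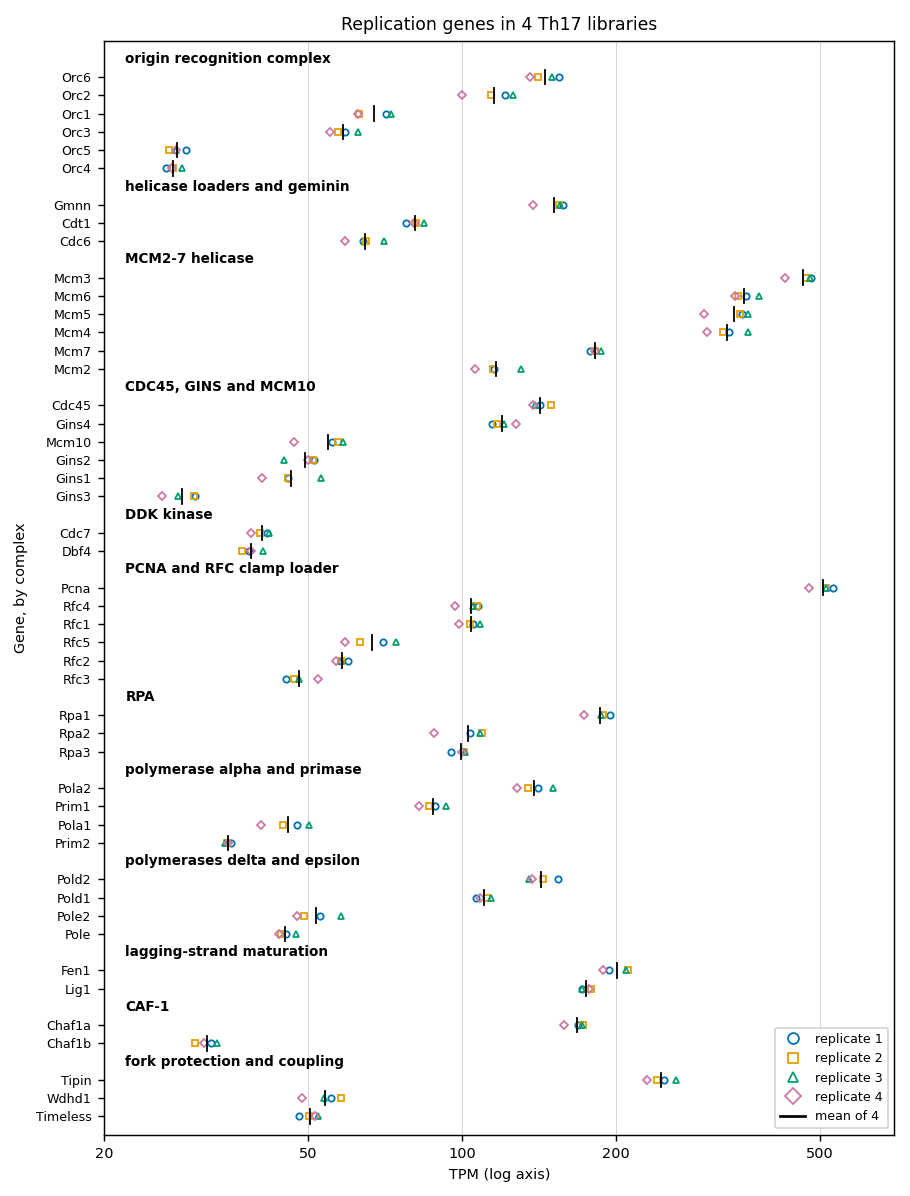
TPM (log axis) of the 47 replication genes in each of the 4 Th17 libraries, by complex, with the mean of the libraries as a black bar and 1 symbol per replicate. Pcna, Mcm3, Mcm6, Mcm5 and Mcm4 stand highest, between 297 and 530.3 TPM in single libraries, and the values of each gene lie within 1.30-fold of each other.

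The origin recognition complex, which binds origins and loads the helicase, had a median of 63.0 ± 4.12 TPM over its 6 subunits (SD, n = 4), with 5.34-fold between the highest and the lowest. Orc6, the smallest subunit, was the highest at 155, 141, 150.2 and 136 TPM in replicates 1 to 4. Orc1 (chr4:108579423-108614833, plus strand), the subunit known in human cells to be degraded after G1, had 71.2, 63.0, 72.8 and 62.6 TPM. Orc2, a core subunit, had 121, 114, 126 and 100.2 TPM. The ranges of Orc1 and Orc2 did not overlap, and Orc1 stood below Orc2 in 4 of 4 libraries, by -0.76 ± 0.0731 on the scale of log2(TPM + 1). The core subunit Orc3 had 58.5 ± 3.08 TPM, or 108 ± 5.67 with the principal transcript length. Orc5 had 27.7 ± 0.899 TPM, or 56.6 ± 1.83 with that length, and Orc4 27.3 ± 0.846 TPM. With the exonic length Orc4 and Orc5 were the lowest of all 47 genes, and their ranges overlapped. With the principal transcript length Orc2 had 87.0, Orc1 54.2 and Orc4 34.8 TPM. Orc3 then stood above Orc2, and Orc5 above Orc1, so this order depends on the length used.

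The loaders and their inhibitor had a median of 81.0 ± 2.61 TPM. Cdc6, the ATPase that works with ORC, was measured at 64.1, 65.1, 70.6 and 59.2 TPM in replicates 1 to 4. Gmnn (chr13:24751845-24761923, minus strand) encodes geminin, the inhibitor of CDT1, and had 158, 155, 155 and 138 TPM. Cdt1, which brings the MCM ring to ORC, had 77.8, 81.2, 84.1 and 80.7 TPM. The inhibitor transcript thus exceeded that of its target in every library, by 0.89 ± 0.102 log2 units or 1.87-fold in the means, and by 0.75 with the principal transcript length. Cdc6 was below Cdt1 in 4 of 4 libraries (-0.32 ± 0.0842 log2 units), but with the principal transcript length Cdc6 was above Cdt1 by 0.18.

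The MCM2-7 helicase had the highest median of the 12 groups of genes, at 335 ± 26.3 TPM (SD, n = 4). Its 6 subunits form 1 ring in equal numbers, while their transcripts spanned 3.98-fold with the exonic length. Mcm3 (chr1:20802968-20820312, minus strand) was the highest at 480.4, 469.7, 479 and 429 TPM in replicates 1 to 4, and its range lay above those of the other 5 subunits. Mcm6, Mcm5 and Mcm4 overlapped with each other, at 356 ± 17.4, 341 ± 29.3 and 330.2 ± 25.3 TPM. Mcm7 had 178, 182, 187 and 182 TPM, a coefficient of variation of 2.11%. Mcm7 carries microRNA genes in its body, whose exons share less than 2% of its exonic length each. Mcm2 was the lowest at 116, 115, 130.3 and 106 TPM, below the range of every other subunit. With the principal transcript length Mcm2 was still lowest, at 168 ± 14.5 TPM, against 189.8 ± 4.06 TPM for Mcm7. Under that length Mcm3 and Mcm6 stood together at 400.4 ± 20.7 and 398 ± 19.4 TPM.

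The factors that activate the loaded ring were lower and uneven, with a median of 53.1 ± 3.14 TPM. Mcm10 (chr2:4989714-5012791, minus strand), which helps to activate the helicase and is not part of the ring, had 55.8, 57.3, 58.7 and 47.1 TPM in replicates 1 to 4. Cdc45, a subunit of the active helicase, had 142, 149, 139 and 138 TPM. The ranges did not overlap, and Mcm10 was below Cdc45 in 4 of 4 libraries, by -1.37 ± 0.123 log2 units (-0.78 with the principal transcript length). Among the 4 GINS genes, Gins4 stood at 114, 117, 121 and 128 TPM, while Gins2, Gins1 and Gins3 had 49.4 ± 3.03, 46.3 ± 5.06 and 28.4 ± 1.98 TPM (SD, n = 4). GINS too holds 1 copy of each subunit, and the range of Gins4 lay above those of the other 3 genes. Dbf4, the activator gene of the kinase, and Cdc7, the kinase gene, were close at 38.8 ± 1.56 and 40.7 ± 1.46 TPM. Dbf4 minus Cdc7 was -0.07 ± 0.0542 log2 units and negative in 4 of 4 libraries. That near-equality rests on the 8728 bases of exon counted for Dbf4: with the principal transcript, 2402 bases long, Dbf4 had 98.1 ± 3.98 TPM and exceeded Cdc7 by 1.35.

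Pcna (chr2:132249162-132253314, minus strand), the sliding clamp that holds polymerases on DNA, was the highest of the 47 genes, at 530.3, 514, 515 and 476 TPM in replicates 1 to 4. Reads that also map elsewhere were not counted, and the annotation lists the pseudogenes Pcna-ps1 and Pcna-ps2 (0 and 198 counts in all), so its value may be too low. Of the 5 clamp loader genes, Rfc1 had 104 ± 4.07, Rfc4 104 ± 4.99, Rfc5 66.6 ± 6.86, Rfc2 58.2 ± 1.23 and Rfc3 48.1 ± 3.01 TPM. Rfc1, the large subunit, exceeded Rfc2 by 0.83 ± 0.0463 log2 units in 4 of 4 libraries. With the principal transcript length Rfc3 had 91.9 ± 5.81 TPM, against 92.0 for Rfc1, 90.7 for Rfc4, 77.5 for Rfc5 and 51.1 for Rfc2. The place of Rfc3 among the clamp loader genes thus depends on the length used.

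RPA coats the single-stranded DNA behind the helicase. Its large subunit gene Rpa1 had 194, 189, 187 and 173 TPM, which exceeded Rpa2 by 0.86 ± 0.0909 log2 units in 4 of 4 libraries. Rpa3 had 95.4, 101, 102 and 100.2 TPM and Rpa2 104, 109.7, 108 and 88.4 TPM in replicates 1 to 4. Rpa3 minus Rpa2 was -0.04 ± 0.146 log2 units and changed sign between libraries, being positive in replicate 4 alone. With the principal transcript length Rpa1 exceeded Rpa2 by 0.27.

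Polymerase alpha and primase start new strands with an RNA and DNA primer. The accessory subunit gene Pola2 had 141, 135, 150.4 and 128 TPM in replicates 1 to 4. Pola1 (chrX:93304767-93632155, minus strand), the catalytic subunit gene, had 47.6, 44.7, 50.2 and 40.5 TPM. Pola2 exceeded Pola1 by 1.58 ± 0.0393 log2 units, or 3.02-fold in the means, and by 1.11 with the principal transcript length. Pola1 was the only one of the 47 genes on chromosome X, and its values in replicates 1 and 2 lay inside the range of replicates 3 and 4. The large primase subunit gene Prim2 had 34.9 ± 0.418 TPM, or 73.1 ± 0.864 with the principal transcript length. Its coefficient of variation was 1.20% in TPM, below the counting error of a single library (2.13% to 4.14%). Prim1, the catalytic subunit of primase, had 87.6 ± 4.39 TPM, or 149 ± 7.44 with that length. Prim2 was below Prim1 by -1.30 ± 0.0797 log2 units in 4 of 4 libraries and by -1.02 with the principal transcript length.

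Of the main replicative polymerases, epsilon is known for the leading strand and delta for the lagging strand. Pole, the catalytic subunit gene of polymerase epsilon, had 45.4, 44.2, 47.3 and 43.9 TPM in replicates 1 to 4. Pold1, that of polymerase delta, had 106, 112, 114 and 109 TPM. The Pole transcript was below that of Pold1 by -1.27 ± 0.0477 log2 units in 4 of 4 libraries and by -1.12 with the principal transcript length. The accessory subunit genes Pole2 and Pold2 had 51.9 ± 4.61 and 143 ± 8.54 TPM. Pole2 minus Pole was 0.19 ± 0.0768 with the exonic length and -0.44 with the principal transcript length, so its direction depends on the length used. Pold2 exceeded Pold1 by 0.37 ± 0.12 log2 units in 4 of 4 libraries. With the principal transcript length the difference was 0.08 ± 0.12, less than its spread, and positive in 3 of 4 libraries.

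Lig1, the ligase that joins Okazaki fragments, had 172, 178, 172 and 177 TPM in replicates 1 to 4, and Fen1, the nuclease that trims their flaps, 194, 211, 209 and 189 TPM. Lig1 minus Fen1 was -0.20 ± 0.0825 log2 units, and 0.20 with the principal transcript length. CAF-1 places histones on the new DNA, and its genes Chaf1b and Chaf1a had 31.7 ± 1.31 and 168 ± 6.55 TPM, a difference of -2.37 ± 0.0757 log2 units. With the principal transcript length they had 57.5 ± 2.39 and 69.8 ± 2.68 TPM, a difference of -0.28. The principal transcript of Chaf1a has 5535 bases, against 3308 bases of exon counted. Its counts came from those 3308 bases alone, so division by 5535 lowers its level. The difference of -0.28 carries this mismatch. The fork protection genes were Tipin (chr9:64281581-64305424, plus strand) at 249, 241, 261 and 229.6 TPM and its partner Timeless at 48.1, 50.3, 52.4 and 51.5 TPM. Tipin exceeded Timeless by 2.25 ± 0.0919 log2 units, and by 1.82 with the principal transcript length. Wdhd1, which links the helicase to polymerase alpha, had 54.0 ± 3.95 TPM.

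**Figure D3:**
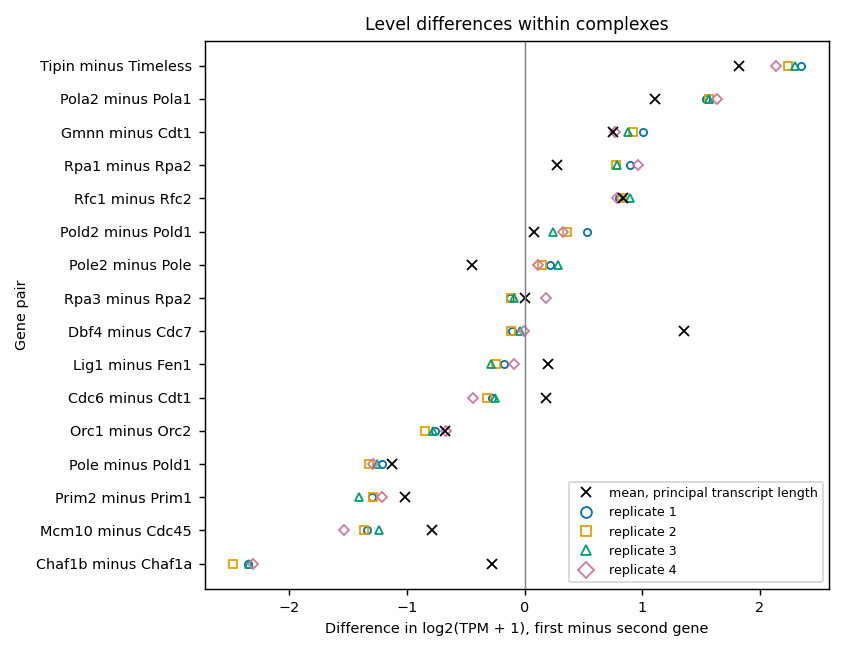
Difference in log2(TPM + 1) between the first and the second gene of 16 pairs, 1 symbol per library, with the mean under the principal transcript length as a cross. The symbols of a pair lie close together, while the cross lies on the other side of 0 for Dbf4 and Cdc7, Pole2 and Pole, Lig1 and Fen1, and Cdc6 and Cdt1.

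Of the 16 gene pairs, 15 had 1 sign in every library. A two-sided exact permutation test that flips the signs of the 4 differences gave each of these 15 p = 0.125, the lowest value possible with 4 libraries, and 0.133 after Benjamini-Hochberg adjustment over the 16 pairs. This test can therefore not bring any pair to 0.05 with 4 libraries, whatever the size of the difference. With CPM in place of TPM, which is not divided by length, 8 of the 16 differences took the other sign, Gmnn minus Cdt1, Mcm10 minus Cdc45 and Pola2 minus Pola1 among them. Rpa3 minus Rpa2 gave p = 0.625 in the same exact permutation test.

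The spread of each gene between the libraries was then set against that of other genes of its abundance. None of the 47 replication genes varied beyond the trend (edgeR quasi-dispersion test with Benjamini-Hochberg adjustment over 12156 genes, smallest adjusted p = 0.991), and 0.00823% of all genes tested did, which is 1 gene, Xist. At an unadjusted p under 0.05 there were 0 of the 47, against 4.9% of all genes tested. DESeq2 marked 0 of the 47 as dispersion outliers, against 0.847% of all genes tested. The filter on low counts asks for a minimum in each of the 4 libraries. It left out the Y-linked genes Ddx3y, Eif2s3y, Kdm5d and Uty, so these were not tested, although Ddx3y had 3414 counts in all. Genes absent from some libraries thus could not be called. All 47 replication genes passed this filter. Their median coefficient of variation was 5.68% on the CPM scale (the count as a share of the library total, with TMM scaling), against 7.91% for all genes tested and 5.75% for the 6967 genes tested within the same range of CPM. The largest was 11.8% for Gins1, the least abundant of the 47 in CPM, followed by Rfc5 at 10.9% and Orc2 at 10.4%. The 2 smallest were 0.706% for Prim2 and 1.87% for Lig1. Counting error alone gives a single library 2.13% to 4.14% for Prim2 and 1.14% to 2.19% for Lig1. The spread of Prim2 lay below this range and that of Lig1 inside it. A p that misses the threshold does not show that the libraries had equal levels.

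**Figure D4:**
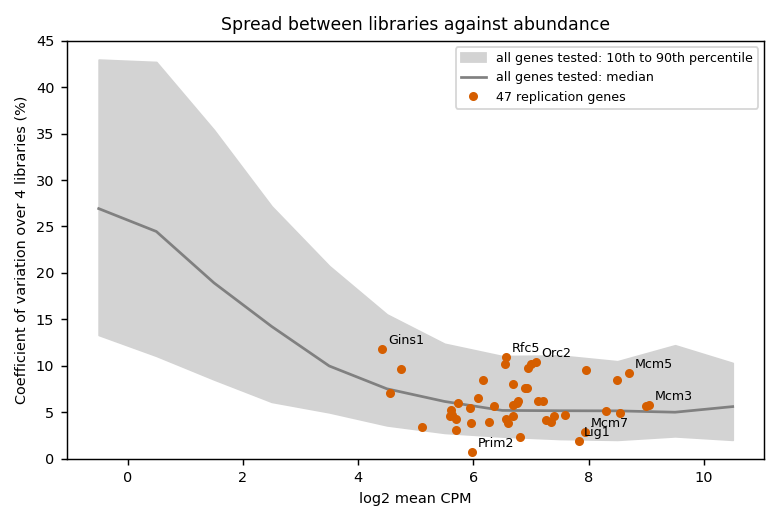
Coefficient of variation over the 4 libraries (percent) against log2 mean CPM, with the 47 replication genes as orange points and the median and 10th to 90th percentile of all genes tested in grey, in bins of 1 log2 unit. The replication genes lie between 0.706% and 11.8%, on both sides of the grey median.

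Within this narrow spread most of the replication genes were lower in replicate 4 and most were higher in replicate 3. On the scale of log2(CPM + 1), each library was compared with the mean of the other 3. In replicate 4 the median replication gene was at -0.13 and 42 of 47 were lower, against 0.00 for all genes tested, of which 49.5% were lower. In replicate 3 the median was 0.10 with 41 of 47 higher, against 0.00 and 49.7% for all genes tested. The medians in replicates 1 and 2 were 0.02 and -0.00. Replicate 3 was the highest library for 30 of the 47 genes, against 33.9% of all genes tested and 39.9% of the 6967 in the same range of CPM. Replicate 4 was the lowest for 34 of the 47, against 32.9% and 41.3%. Both held for 22 of the 47, or 46.8%, against 20.6% of all genes tested and 27.4% of those in the same range of CPM. The medians of those 6967 genes were -0.02 in replicate 4 and 0.02 in replicate 3. Of the 6967, 3963 were lower in replicate 4 and 3906 (56.1%) were higher in replicate 3.

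All 6 MCM2-7 genes and all 6 ORC genes were lower in replicate 4 and higher in replicate 3 than the mean of the other libraries. The MCM2-7 medians were -0.18 and 0.15, and the ORC medians -0.13 and 0.12. The same held for the 3 genes Cdc6, Cdt1 and Gmnn, the 3 RPA genes, and for Cdc7, Dbf4, Chaf1a and Chaf1b. The 5 genes that were not lower in replicate 4 were Gins2, Gins4, Rfc3, Lig1 and Timeless, with Rfc3 the farthest at 0.14. Cdc45, Gins2, Gins3, Prim2, Pold2 and Lig1 were not higher in replicate 3, with Gins2 the farthest at -0.15. Among single genes, Mcm10 had the lowest shift in replicate 4 at -0.30, and Gins1 the highest in replicate 3 at 0.28. Replicate 3 also had the fewest counts, and the part of depth in these shifts was not tested. In RNA from a mixed population, fewer cells in S phase and less of each RNA per cell cannot be told apart.

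**Figure D5:**
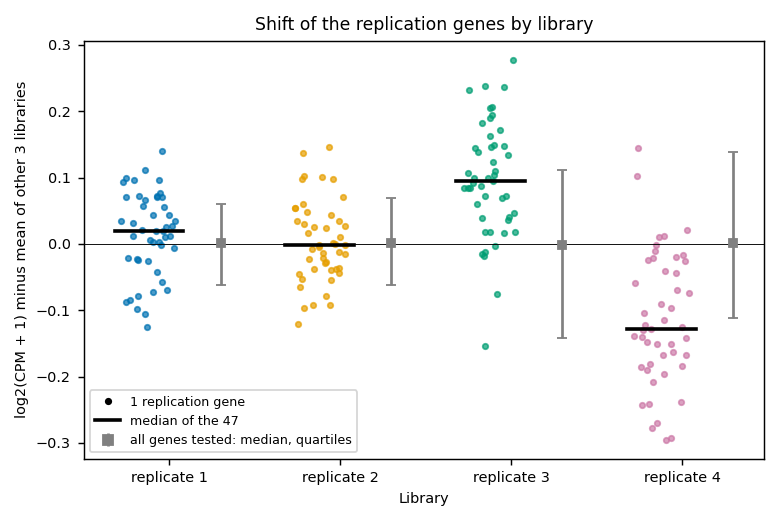
Difference in log2(CPM + 1) between each library and the mean of the other 3, with 1 point per replication gene, their median as a black bar, and the median and quartiles of all genes tested in grey. Most points lie below 0 in replicate 4 (median -0.13) and above 0 in replicate 3 (median 0.10).

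A second list held 31 other replication genes, among them accessory polymerase subunits, topoisomerases, firing factors and histone chaperones. All 31 were at 1 TPM or more in every library, with a median of 63.6 ± 4.32 TPM (SD, n = 4). The 5 highest were Ssrp1 (532 ± 25.9 TPM) and Supt16 (229.8 ± 18.8 TPM), the subunits of the histone chaperone FACT, the topoisomerase gene Top2a (365 ± 14.5 TPM), the PCNA-binding factor gene Pclaf (211 ± 9.62 TPM) and the clamp loader gene Chtf8 (204 ± 14.9 TPM). The lowest was Mcm9, a relative of the MCM2-7 genes, at 7.65 ± 0.324 TPM. The spread of 0 of the 31 passed the edgeR quasi-dispersion test, against 0.00823% of all genes tested. In that test 2 (6.45%) had an unadjusted p under 0.05, against 4.9% of all genes tested, and these 2 were picked after their values were seen. These were the topoisomerase gene Top1 and the polymerase delta subunit gene Pold4, with edgeR adjusted p of 0.951 and 0.991. DESeq2 marked 0 of the 31 as dispersion outliers, against 0.847% of all genes tested. The median shift of the 31 was -0.13 in replicate 4 and 0.10 in replicate 3, and 25 and 26 of the 31 lay on those sides. Of all genes tested, 49.5% and 49.7% did. An E2F word stood in the windows of 10 of the 27 with a window (37.0%).

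Some values carry limits from the counting. Exons of another gene on the same strand, whose shared reads were not counted, overlapped 3 of the 47 genes (Orc5, Mcm7 and Rpa1), in each case by less than 10% of the exonic length. Exons on the opposite strand overlapped 15 of the 47, most of all Fen1 (78.8% with Gm10143, which had 11 counts) and Gins2 (67.3% with Gse1). The counting used strand per the file headers, so these reads were assigned by strand.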

How the data were processed

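Each of the 4 libraries had 1 deposited table of raw counts (read pairs assigned to each gene). Per the file headers, featureCounts 1.4.6-p4 assigned pairs to exons of the mouse GENCODE annotation, release 13. Both mates had to align, the strand setting was reverse, and pairs mapping to several places or overlapping several genes were left out. The build is mm10 per the labels, and the aligner's version is not stated there. Total RNA is named as the assay in the labels, poly(A) RNA in the name of the linked library protocol. Symbols came from GENCODE release 21, found for 50376 of 50600 identifiers.

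TPM were computed from counts and the exonic length in the files. Counts were fitted with edgeR 4.0.16 (filterByExpr, TMM, intercept alone), and each gene's quasi-dispersion over its trend was tested against the F distribution (adjusted p of 0.05). The common biological coefficient of variation was 9.13%. DESeq2 1.42.0 gave an alternative. Gene pairs were tested with an exact sign-flip permutation test over the 4 libraries. Intervals and floors would cover counting error only.

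All 47 genes could be named. Of the other replication genes, the 5 highest, any below 1 TPM and any called were to be named, and none of the last 2 kinds was found. Mcm9, Top1 and Pold4 were named outside this rule. The genes, lists and pairs were chosen with earlier results of these data known. Alternatives were DESeq2 size factors, library totals, other filters and pseudocounts, CPM, the exonic length less 200 bases, the TPM total of coding genes, and each replicate left out.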

Additional observations from a re-analysis of the deposited data

Results flagged for a closer look

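Of 76 values checked for a library that stands apart (47 genes, 12 complexes, the median of all 47 and 16 gene pairs), 2 had 1 library whose gap to the nearest other library, as a share of the whole range, passed the 95% critical value of Dixon's test. Chance alone flags about 1 in 20. Gmnn, the gene of the licensing inhibitor geminin, had 158, 155 and 155 TPM in replicates 1 to 3 and 138 TPM in replicate 4, a gap of 0.853 of its range. The difference of Rpa3 minus Rpa2 was positive in replicate 4 and negative in replicates 1 to 3, a gap of 0.904 of its range. In both cases replicate 4 was the library that stood apart.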

How the results depend on the processing

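Of 189 alternative values for 24 results, 170 kept their direction and their side of the threshold or stayed close to the reported value. With CPM and no length correction, Cdc6 minus Cdt1 was 0.41, Gmnn minus Cdt1 -0.20, Mcm10 minus Cdc45 0.39, Dbf4 minus Cdc7 0.98, Pola2 minus Pola1 -0.0186, Pold2 minus Pold1 -0.98, Pole2 minus Pole -2.48 and Lig1 minus Fen1 0.61, all reversed, since that unit favours longer genes. With the principal transcript length, chosen after seeing the data, Cdc6 minus Cdt1 was 0.18, Dbf4 minus Cdc7 1.35, Pole2 minus Pole -0.44 and Lig1 minus Fen1 0.20. With the exonic length less 200 bases, Rpa3 minus Rpa2 was 0.14, since the 200 bases are a larger part of Rpa3 (1136 bases) than of Rpa2 (2993 bases). The median of the 47 genes was then 47.04 TPM, since genes shorter than 200 bases were set to 1 base and take a larger share of the total. In CPM that median was 105.5. The mean of the other 7 pairs kept 1 sign under every setting run, and that of all 16 did without any 1 replicate. The count of genes at 1 TPM or more stayed at 47, and the median without 1 replicate lay between 94.9 and 99.3 TPM. The number of variable genes over all genes tested was 5 with a mean count of at least 50, 126 without a filter, 103 by DESeq2 dispersion outliers, and 1 to 20 without 1 replicate (20 without replicate 4). None of the 47 was called in any of these. The median shift lay between -0.15 and -0.10 in replicate 4 and between 0.07 and 0.11 in replicate 3 over the settings run, while the values near 0 in replicates 1 and 2 took both signs. No paired analysis was possible because all 4 libraries belong to 1 group. With 4 libraries the exact sign-flip test of a gene pair cannot pass the threshold, and at 9382661 counts replicate 3 limits the precision.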
